A study of Mus musculus with 6 samples.

Results

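The nuclear-encoded subunits of mitochondrial respiratory complexes II to V, and the electron carrier cytochrome c, were followed in RNA from mouse hearts on Affymetrix whole-genome expression arrays. Members were all probe sets annotated to exactly 1 gene named Sdha to Sdhd, Cyc1 or Cycs, or with a name beginning Uqcr, Cox4i, Cox5, Cox6, Cox7, Cox8 or Atp5. This gave 96 of the 45101 probe sets, for 48 of the 18193 genes named by such single annotations. By complex these were 4 genes of complex II, 9 of complex III, cytochrome c (Cycs), 16 of complex IV, 17 of complex V and Cox7a2l, which resembles a complex IV subunit but acts in the assembly of supercomplexes. The series held 6 arrays, 3 from C57BL/6 mice that overexpressed hAT1R, the human type 1 angiotensin II receptor, and 3 from normal C57BL/6 mice. The design text states that hearts were matched for age and sex, but neither the ages nor the promoter that drives the transgene are given in the sources used here. The sources do not say whether the 6 arrays came from 6 animals, so the p-values hold for the spread among these arrays, part of which may be technical.

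In the instrument's own records the chip lot field held the word "control" on the 3 arrays titled transgenic and "transgene" on the 3 titled non-transgenic. Groups here follow the sample titles, written as labelled transgenic, and every sign below would turn with the typed words. The human receptor was not read by any named probe set and gave no check of the labels. Median log2 values per array ran from 3.25 to 3.31. Fluidics station 2 handled the labelled transgenic group together with non-transgenic array 1, while non-transgenic arrays 2 and 3 ran on station 3. A fit with the station as a block therefore sets the labelled transgenic group against non-transgenic array 1 alone. The matching for sex did not hold in the array values: Xist, the transcript of the inactive X chromosome in females, read log2 9.48, 2.58 and 9.48 on labelled transgenic arrays 1, 2 and 3 and 2.49, 9.69 and 3.01 on the non-transgenic ones, so that it was high on 2 of 3 arrays against 1 of 3. With Xist as a covariate, 42 of the 45 member genes tested were still negative, with a median of -0.10. All labelled transgenic arrays were scanned first, so scan order and group cannot be told apart. Probe sets were tested where their mean lay above a brightness filter, the median of all probe set means at log2 3.29. Cardiomyocyte markers were all above it (10 of 10). Their summed log2 level ran from 18.537 to 18.554 in the labelled transgenic group and from 18.555 to 18.586 in the other, slightly lower and without overlap. These markers had a median difference of -0.021, with 5 lower, 5 higher and 0 at an unadjusted p under 0.05. Those of fibroblasts (9 of 9 above the filter) summed to 14.18 to 14.51 against 13.81 to 14.01, with a median difference of 0.68 and 6 genes higher at an unadjusted p under 0.05. Those of macrophages (9 of 9 above the filter) summed to 11.98 to 12.20 against 11.53 to 11.61, with a median difference of 0.55 and 8 genes higher at that level. The part of these non-muscle cells in the differences below was not tested, and in bulk tissue fewer cardiomyocytes and less RNA per cardiomyocyte cannot be told apart.

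In the inner mitochondrial membrane, complex II passes electrons from succinate to ubiquinone, complex III passes them on to cytochrome c, and complex IV, cytochrome c oxidase, hands them to oxygen. Complexes III and IV pump protons, and complex V, the ATP synthase, uses the proton gradient to make ATP. The heart relies on this chain for most of its ATP. Mammalian complex IV has tissue isoforms: Cox6a2, Cox7a1 and Cox8b encode the subunits of heart and skeletal muscle, and Cox6a1, Cox7a2 and Cox8a their ubiquitous counterparts, often called the liver type.

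The isoform genes also differ in their promoters, shown here because the heart-type and ubiquitous genes are compared below. The 300 bases from 250 before to 50 after the annotated start (RefSeq, GRCm38.p6, 5′ to 3′ on the gene's strand) are given for the pairs of which both genes were in the promoter table. Capitals mark matches on either strand to the letters searched, which were GCATGCGC (NRF1), CCGGAA (ETS family, as bound by GABP), TCAAGGTCA (ERR), TGACGTCA (CRE), TATAAA (core of the box of that name) and CAGCTG (an E-box). None of the marked matches overlapped one of another motif. Cox7a1 lies at chr7:30183921-30184220, plus strand, Cox7a2 at chr9:79759804-79760103, minus strand, Cox8b at chr7:140900397-140900696, minus strand and Cox8a at chr19:7217567-7217866, minus strand.
Cox7a1: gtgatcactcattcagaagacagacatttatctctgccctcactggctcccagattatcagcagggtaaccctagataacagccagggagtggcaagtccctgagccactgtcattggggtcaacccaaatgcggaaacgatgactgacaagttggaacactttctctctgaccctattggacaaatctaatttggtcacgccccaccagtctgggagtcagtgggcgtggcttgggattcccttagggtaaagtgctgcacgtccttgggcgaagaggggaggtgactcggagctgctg
Cox7a2: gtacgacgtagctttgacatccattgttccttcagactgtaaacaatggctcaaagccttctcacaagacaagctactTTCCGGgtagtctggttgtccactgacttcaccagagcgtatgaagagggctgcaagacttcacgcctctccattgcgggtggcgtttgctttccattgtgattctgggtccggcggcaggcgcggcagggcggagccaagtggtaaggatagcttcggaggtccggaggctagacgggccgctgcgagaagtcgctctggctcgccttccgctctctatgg
Cox8b: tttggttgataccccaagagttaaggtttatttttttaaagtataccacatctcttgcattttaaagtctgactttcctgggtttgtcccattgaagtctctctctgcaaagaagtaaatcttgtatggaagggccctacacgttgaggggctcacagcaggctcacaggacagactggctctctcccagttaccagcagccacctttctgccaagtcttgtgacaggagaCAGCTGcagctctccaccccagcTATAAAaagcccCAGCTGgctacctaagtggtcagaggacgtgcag
Cox8a: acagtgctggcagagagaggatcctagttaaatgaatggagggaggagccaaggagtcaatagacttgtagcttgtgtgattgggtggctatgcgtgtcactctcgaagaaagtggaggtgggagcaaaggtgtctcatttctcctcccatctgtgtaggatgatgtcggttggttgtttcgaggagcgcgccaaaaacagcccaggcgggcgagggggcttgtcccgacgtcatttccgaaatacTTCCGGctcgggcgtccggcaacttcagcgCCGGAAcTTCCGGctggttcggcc

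The heart-type Cox7a1 window held 7 CpG dinucleotides and no match to any of these letters, and that of Cox8b held 2 CpG, 1 TATAAA and 2 CAGCTG. The ubiquitous Cox7a2 window held 20 CpG and 1 CCGGAA, and that of Cox8a 19 CpG and 3 CCGGAA. Over the 36 members in the table, the median was 19 CpG, against 7 over all 27025 genes in it. CCGGAA was found in 16 of the 36 members (44.4%) and in 16.7% of all genes, and GCATGCGC in 8 (22.2%) and in 3.05%. TCAAGGTCA was found in 2 members, Atp5g3 and Sdhd (5.56%), against 0.466% of all genes, and TGACGTCA in 2, Cycs and Uqcrfs1 (5.56%), against 2.03%. TATAAA was in 4 members (11.1%) against 15.7% and CAGCTG in 2 (5.56%) against 18.3%. CCGGAA, GCATGCGC and TGACGTCA each hold a CpG, and the members were set against all genes without matching for CpG. The part of CpG content in these shares was not tested. A match describes these letters alone and is no evidence of binding.

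Nearly all members had lower mean values in the labelled transgenic hearts, by small amounts, and none passed the test over the whole array. Where a gene had several probe sets, the brightest stands for it, and 45 of the 48 genes lay above the brightness filter. Of these 45, 42 had a negative difference and 3 a positive one, with a median of -0.11 on the log2 scale, where all 11016 genes tested had a median of 0.0099 and 47.6% negative. In limma's moderated test with Benjamini-Hochberg adjustment over all 22518 probe sets, none of the 45 passed at 0.05, against 0.227% of all genes, and the smallest value was adjusted p = 0.152. At an unadjusted p under 0.05 there were 7 members, all lower, or 15.6%, against 7.76% of all genes lower at that level. This count was 4, 3 and 4 when labelled transgenic array 1, 2 or 3 was left out, and 4 when non-transgenic array 1 was. In these fits 2532 to 3455 of all 22518 probe sets stood at that level, in either direction. The share of all genes lower at that level was not counted in these fits. Whether the members still exceeded it there is therefore not known. The 7 were Sdhd, Uqcrfs1, Cox6a1, Cox7a1, Cox7c, Atp5d and Atp5mpl. In 28 members (62.2%) all 3 labelled transgenic values lay below all 3 others, against 10.9% of all genes, and in none did they all lie above, against 14.3%. By probe set, 79 of 84 were negative (47.5% of all), 16 were lower at an unadjusted p under 0.05 (19.0%, against 6.98% of all) and 41 did not overlap (48.8%, against 9.78%). None passed, against 0.218% of all. The counts include Cox6b2 and, by probe set, a dim one of Cycs, whose labelled transgenic means lay below the filter. The members share their arrays and are not independent of each other, so these shares describe the 6 arrays and are not a test.

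**Figure D1:**
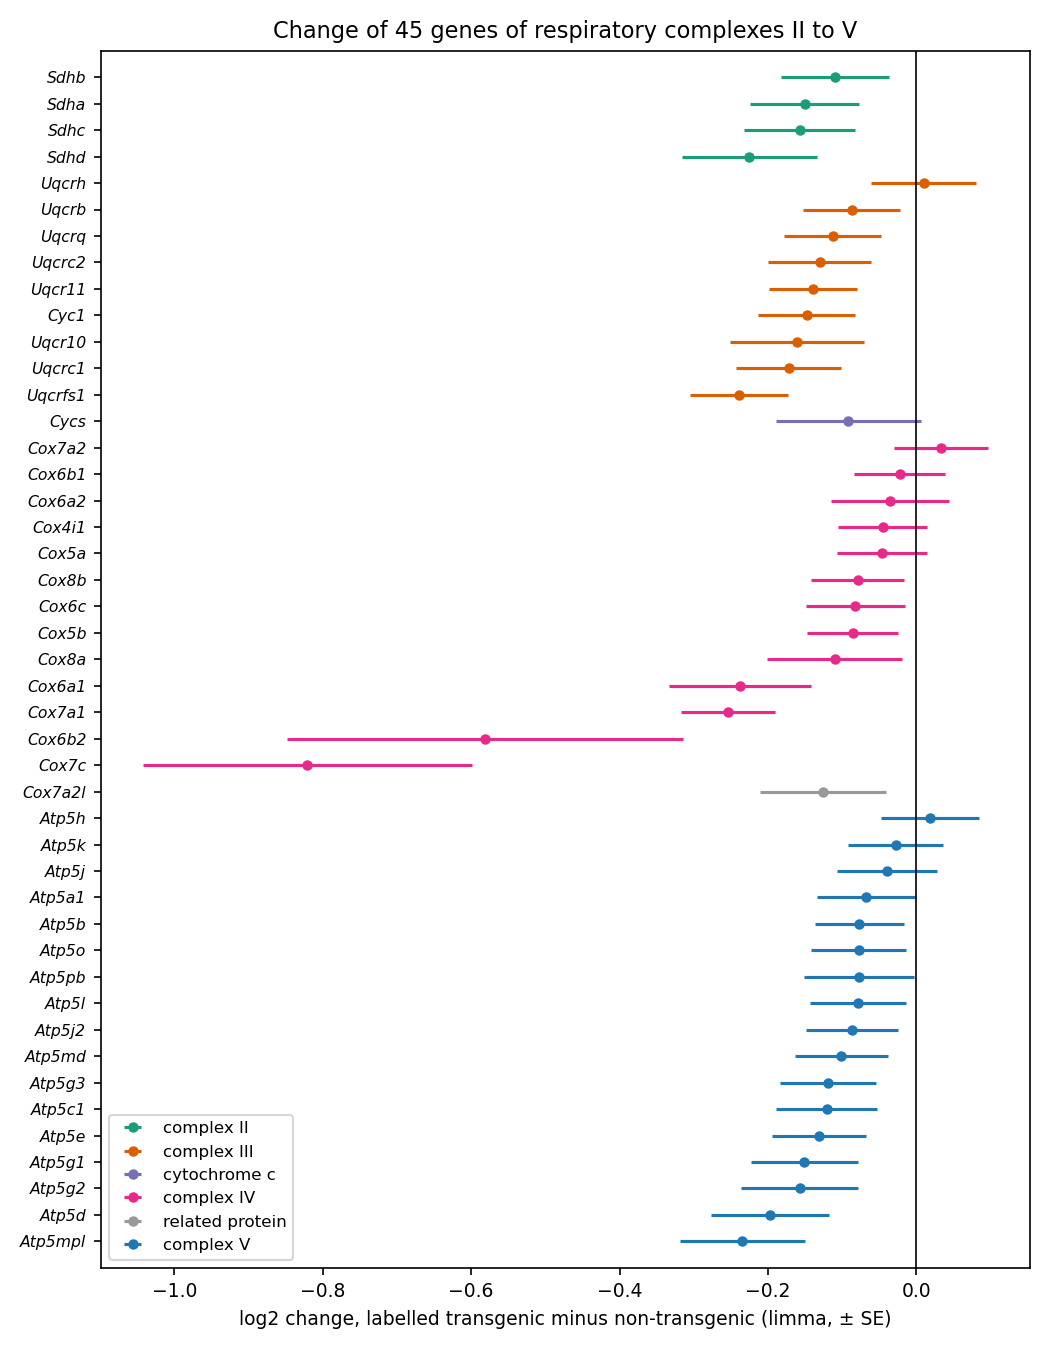
Log2 difference of each of the 45 genes above the brightness filter (x axis, labelled transgenic minus non-transgenic, limma estimate as a point with its SE as a bar), one gene per line, coloured by complex. Points lie left of 0 for 42 genes, most between 0 and -0.25, and the 2 far left points are the dim Cox6b2 and Cox7c.

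When each gene was set against its own mean over the 6 arrays, the median over the 45 members was -0.028, -0.053 and -0.082 on the labelled transgenic arrays and 0.073, 0.0091 and 0.059 on the others. Labelled transgenic array 3 was the lowest array for 25 of the 45 genes and non-transgenic array 1 the highest for 22. The difference of these medians was -0.10, against 0.0097 for all genes tested and -0.018 for the 401 other genes with a mean of at least log2 12. The members' median difference was -0.13 in the fit blocked by station and the same within station 2. In both, non-transgenic array 1 was the only control compared. With single arrays left out it ran from -0.13 to -0.097. A gauge of RNA integrity moved with the groups too: beta-actin control probe sets at the 3′ end read above those at the 5′ end by log2 0.80 to 0.94 on the labelled transgenic arrays and 0.97 to 1.05 on the others, and its part in the shift was not tested.

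**Figure D2:**
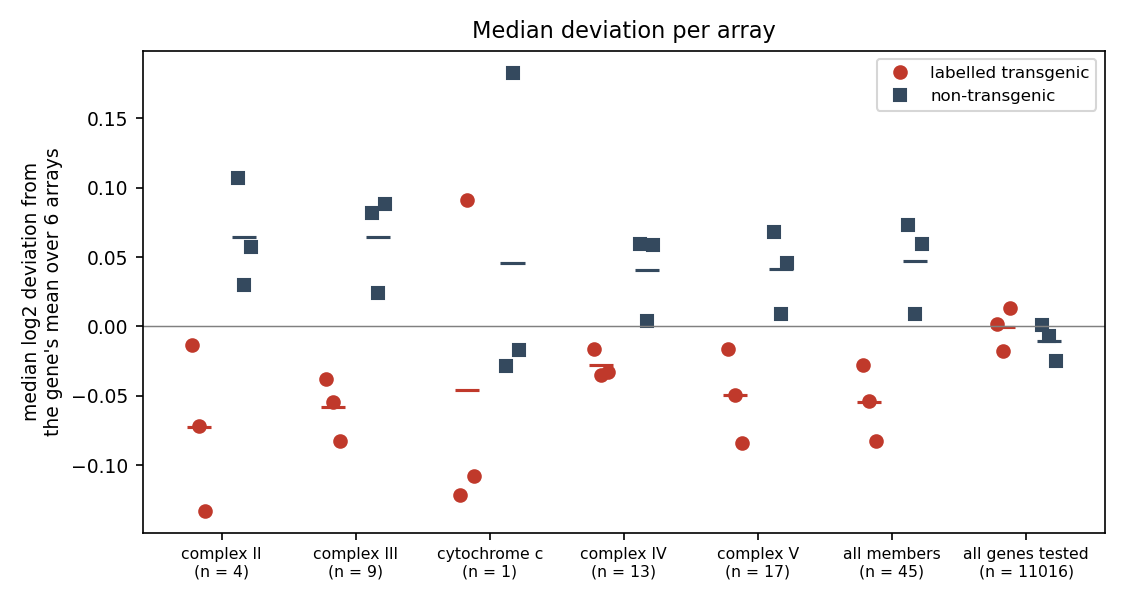
Median log2 deviation from each gene's mean over the 6 arrays (y axis), for each array as a point and each group's mean as a line, by complex, over all 45 members and over all 11016 genes tested. In complexes II to V the 3 labelled transgenic arrays all lie below the 3 non-transgenic ones, while those of cytochrome c, a single gene, and of all genes overlap.

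In complex II, succinate dehydrogenase, all 4 genes had negative differences, with a median of -0.15. Sdhd, a membrane anchor, read log2 12.48, 12.49 and 12.50 on the 3 labelled transgenic arrays and 12.89, 12.61 and 12.65 on the 3 non-transgenic arrays. The groups did not overlap, and non-transgenic array 1 was the highest of the 6. Its difference was -0.22 ± 0.091 (SE, n = 3 a group, limma adjusted p = 0.298), and it was at -0.39 with the fluidics station as a block and at -0.14 without non-transgenic array 1. The blocked value did not pass either (limma, adjusted p = 0.141, the lowest of 19 alternatives, whose highest was 0.527). Sdha, the flavoprotein that oxidises succinate, was at -0.15 ± 0.074, Sdhc, the other anchor, at -0.16 ± 0.075 and Sdhb, the iron-sulfur subunit, at -0.11 ± 0.073. In Sdha and Sdhc the groups did not overlap, and in Sdhb they did. The other 2 Sdha probe sets above the filter lay further below 0, at -0.23 and -0.31. The other probe sets of Sdhd, at -0.19, and of Sdhc, at -0.16, had overlapping groups.

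In complex III, 8 of 9 genes were negative, with a median of -0.14. The groups did not overlap in 7 (77.8%, against 10.9% of all genes). Its most negative value was that of Uqcrfs1, the Rieske iron-sulfur protein that takes electrons from ubiquinol. Uqcrfs1 read log2 13.86, 13.82 and 13.83 on the 3 labelled transgenic arrays and 14.04, 14.04 and 14.14 on the 3 non-transgenic arrays. The labelled transgenic values lay close together and below every control. The difference was -0.24 ± 0.065, or 84.7% of the non-transgenic level, with a 95% interval from -0.40 to -0.080 (adjusted p = 0.171 in limma, 0.0766 to 0.400 over the alternatives). Uqcrc1, a core protein, was at -0.17 ± 0.071 and Uqcr10, a small accessory subunit, at -0.16 ± 0.09. Cyc1, the haem protein cytochrome c1 that passes electrons to cytochrome c, was at -0.15 ± 0.065, with no overlap. Uqcrh, the hinge protein, was the exception at 0.01 ± 0.071, and its other probe set was at -0.042. The groups of Uqcrh overlapped, and its sign turned in 4 of 19 alternatives.

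Cycs, the soluble electron carrier cytochrome c, had 4 probe sets that gave unlike sizes. The brightest read log2 14.56, 14.77 and 14.58 on the 3 labelled transgenic arrays and 14.65, 14.87 and 14.67 on the 3 non-transgenic arrays, with overlapping groups and a difference of -0.092 ± 0.098 (adjusted p = 0.69). The others were at -0.18 and -0.30 for means of 14.32 and 13.51, and at -0.97 for a dim one with a mean of 3.64. The dim one averaged 3.16 in the labelled transgenic group, below the filter, and 4.12 in the other. It was thus tested only through its non-transgenic values, and its sign is no support. All 4 were negative, and the mean of the 4, the dim one included, was at -0.38. It did not pass (limma, adjusted p = 0.172, the lowest of 19 alternatives, whose highest was 0.963).

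Complex IV had the widest spread among its genes, which came from the dim Cox7c and Cox6b2. Its other genes ran from -0.25 to 0.033, where complex III ran from -0.24 to 0.010 and complex V from -0.23 to 0.018. Of 13 genes above the filter 12 were negative, with a median of -0.082. The groups did not overlap in 7 (53.8%, against 10.9% of all genes). Cox4i1, the ubiquitous isoform of a regulatory subunit, was at -0.045 ± 0.06. Its counterpart Cox4i2, best known from lung, lay below the brightness filter at 2.63 against 2.68, as did the testis isoforms Cox7b2 at 2.38 against 2.36 and Cox8c at 1.57 against 1.55. Cox6b1, a subunit on the side facing the intermembrane space, was at -0.022 ± 0.062. Its sign turned with the fluidics station as a block, so against non-transgenic array 1 alone. Cox6b2, the testis isoform of Cox6b1, sat near the filter, at 3.16, 3.17 and 3.16 against 3.83, 4.26 and 3.15. Only non-transgenic arrays 1 and 2 read above the filter, so Cox6b2 was tested, and counted as negative, through these alone. The groups overlapped, and the difference was -0.58 ± 0.27 (limma, adjusted p = 0.351).

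Cox7c, a small subunit of complex IV, had the largest difference of all 45 genes and was dim. It read log2 3.90, 3.92 and 4.39 on the 3 labelled transgenic arrays and 4.57, 5.29 and 4.81 on the 3 non-transgenic arrays. The groups did not overlap, and the difference was -0.82 ± 0.22 (adjusted p = 0.167 in limma). With the station as a block, so against non-transgenic array 1 alone, it was -0.50. Over all alternatives its adjusted p in limma ran from 0.131 to 0.463. Its other probe set lay below the filter at a mean of 2.93, so the size rests on 1 dim probe set, of suffix _s_at, which can read several transcripts. Of the 96 member probe sets, 27 had this suffix or _x_at, which marks possible cross-hybridization, and without them 41 member genes were left in the test.

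The heart-type and ubiquitous isoforms did not divide the same way in the 3 pairs. For Cox7a the heart-type gene was the lower one. Cox7a1 read log2 14.11, 14.18 and 14.13 on the 3 labelled transgenic arrays and 14.36, 14.41 and 14.42 on the 3 non-transgenic arrays, with no overlap and a difference of -0.25 ± 0.064, or 83.9% of the non-transgenic level, with a 95% interval from -0.41 to -0.099. This was the smallest adjusted p of any member (adjusted p = 0.152 in limma, from 0.0605 to 0.372 over the alternatives). Its ubiquitous partner Cox7a2 read log2 14.57, 14.52 and 14.51 on the 3 labelled transgenic arrays and 14.51, 14.47 and 14.53 on the 3 non-transgenic arrays. These overlapped, and the difference of Cox7a2 was 0.033 ± 0.063, turning to -0.020 as the mean of its 2 probe sets.

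For Cox6a it was the ubiquitous gene. Cox6a1 read log2 12.46, 12.33 and 12.61 on the 3 labelled transgenic arrays and 12.62, 12.79 and 12.71 on the 3 non-transgenic arrays. The groups did not overlap, labelled transgenic array 3 came close to the lowest control, and the difference was -0.24 ± 0.096 (adjusted p = 0.298). The heart-type Cox6a2 read log2 14.72, 14.63 and 14.60 on the 3 labelled transgenic arrays and 14.77, 14.58 and 14.71 on the 3 non-transgenic arrays. Here the groups overlapped, and the difference was -0.035 ± 0.08 (adjusted p = 0.871). Without non-transgenic array 1 it was 0.0076.

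For Cox8 both isoforms had small negative differences. The heart-type Cox8b read log2 14.62, 14.63 and 14.64 on the 3 labelled transgenic arrays and 14.74, 14.66 and 14.73 on the 3 non-transgenic arrays, with no overlap and a difference of -0.079 ± 0.062. The ubiquitous Cox8a read log2 10.25, 10.01 and 10.22 on the 3 labelled transgenic arrays and 10.35, 10.20 and 10.27 on the 3 non-transgenic arrays. Its groups overlapped, and the difference was -0.11 ± 0.091.

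The within-array difference between isoforms cancels a shift of a whole array that is equal at all levels of brightness. Only the change of this difference between the groups is compared, since the levels of different probe sets cannot be set against each other. The probe sets of a pair were not equally bright. Mean log2 values were 14.27 for Cox7a1 and 14.52 for Cox7a2, 14.67 for Cox6a2 and 12.58 for Cox6a1, and 14.67 for Cox8b and 10.22 for Cox8a. Very bright probe sets can understate a difference, and the part of brightness in the pair values was not tested. Cox7a1 minus Cox7a2 was -0.47, -0.33 and -0.38 on the labelled transgenic arrays and -0.15, -0.062 and -0.11 on the others, without overlap. The groups differed by -0.29 ± 0.048 (SE, n = 3 a group), with p = 0.1 in a 2-sided exact permutation test, which cannot go lower with 3 arrays a group, and 0.3 after Benjamini-Hochberg adjustment over the 3 pairs. With the other Cox7a2 probe set the size was -0.18. Cox6a2 minus Cox6a1 went the opposite way, at 2.26, 2.30 and 1.99 against 2.16, 1.79 and 2.001. These overlapped and differed by 0.20 ± 0.14 (exact permutation p = 0.3, adjusted p = 0.45), and by 0.030 with the station as a block or within station 2. Without non-transgenic array 2 the value was 0.11. Cox8b minus Cox8a was 4.36, 4.62 and 4.42 against 4.39, 4.46 and 4.46, a difference of 0.031 ± 0.081 (exact permutation p = 0.9, adjusted p = 0.9), and without labelled transgenic array 2 its sign turned, to -0.044. The heart-type minus ubiquitous difference thus had no direction common to the 3 pairs.

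**Figure D3:**
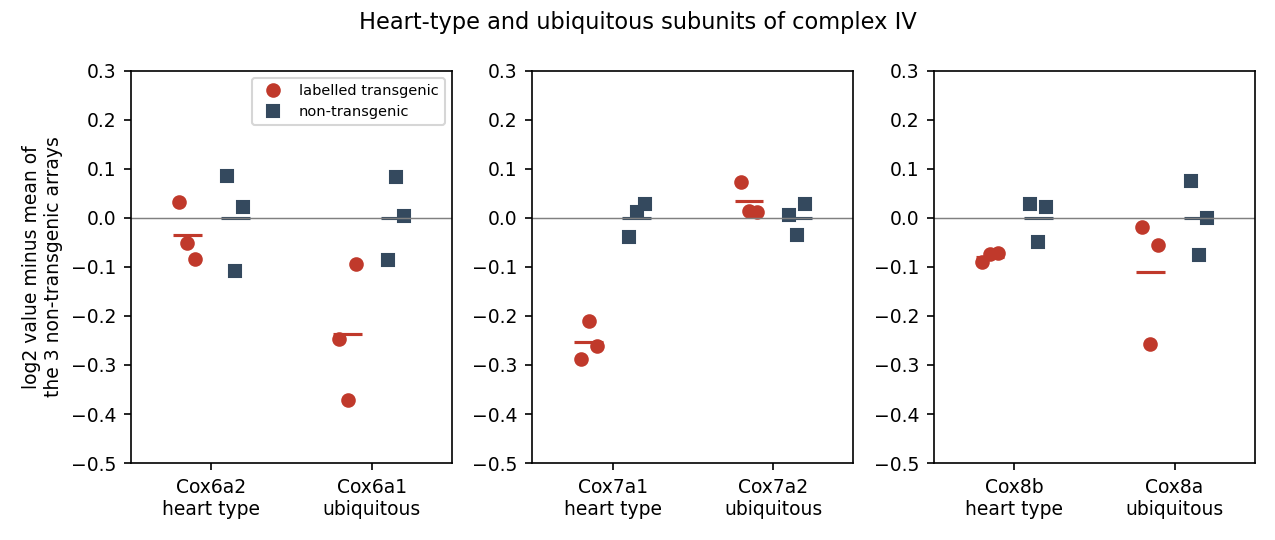
Log2 values of the 3 heart-type genes and their ubiquitous partners on each array, as points, minus the gene's mean over the 3 non-transgenic arrays (y axis), with group means as lines. Cox7a1, Cox6a1 and Cox8b have all labelled transgenic points below the non-transgenic ones, while those of Cox7a2, Cox6a2 and Cox8a overlap.

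In complex V, the ATP synthase, 16 of 17 genes were negative, with a median of -0.087. The groups did not overlap in 11 (64.7%, against 10.9% of all genes). Atp5mpl, a small proteolipid of the membrane part, read log2 12.95, 12.73 and 12.76 on the 3 labelled transgenic arrays and 13.06, 13.09 and 12.99 on the 3 non-transgenic arrays. Its difference of -0.23 ± 0.084 was the largest of this complex (limma adjusted p = 0.258, no overlap). Atp5d, the delta subunit of the central stalk, read 13.45, 13.35 and 13.35 against 13.62, 13.47 and 13.66 and differed by -0.20 ± 0.079, while its other probe set was at -0.25. The 3 genes of the membrane c subunit, which encode the same mature protein and form the rotor ring, lay close together: Atp5g1 at -0.15 ± 0.072, Atp5g2 at -0.16 ± 0.078 and Atp5g3 at -0.12 ± 0.065, none overlapping. The other tested probe sets of Atp5g1 and Atp5g2, dim at means of 4.26 and 3.68, were at -0.063 and -0.29, with overlapping groups. The catalytic beta subunit Atp5b was at -0.077 ± 0.06 and the alpha subunit Atp5a1 at -0.067 ± 0.067. Atp5h, the d subunit of the peripheral stalk, had the highest difference, at 0.018 ± 0.066, with overlapping groups and a sign that turned in 4 of 19 alternatives. The medians of complexes II, III, IV and V, at -0.15, -0.14, -0.082 and -0.087, had SDs between replicate arrays of 0.051, 0.030, 0.024 and 0.032, and no difference between complexes was tested. Cox7a2l, the assembly protein counted apart, was at -0.13 ± 0.085, with overlapping groups.

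Members at the top of the scale had smaller differences than the less bright ones. Of the 48 genes, 26 had a mean of at least log2 14, and the highest member value was 15.17, where the brightest value of the arrays was 16.05. The 26 had a median of -0.081 with 23 negative, while 72 other genes of that level had a median of -0.0087 with 54.2% negative. The 15 members between log2 12 and 14 had a median of -0.16 and all were negative, against -0.0061 and 50.8% for 329 other genes. Very bright probe sets can understate a difference, and a value near 0 in a bright member is not taken to show stability. Of 27 genes with at least 2 probe sets above the filter, 22 had the same sign on all of them, and in 15 the dimmest probe set gave the lower value. Both Cox6a1 probe sets, at -0.24 and -0.26, lay close together, while Uqcr10 had probe sets at -0.16, -0.15 and 0.045.

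**Figure D4:**
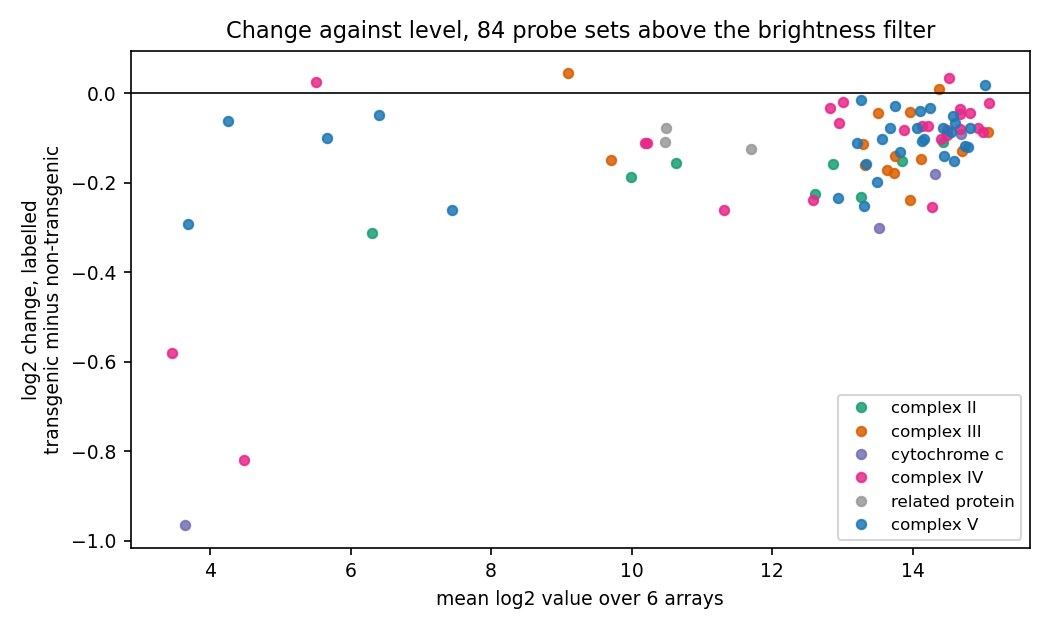
Log2 difference between groups (y axis) against the mean log2 value over the 6 arrays (x axis) for the 84 member probe sets above the brightness filter, coloured by complex. Most points crowd between log2 12 and 15 at small negative values, and the largest negative differences belong to 3 dim probe sets below log2 5.

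Genes that build or supply these complexes were mostly negative as well, where 47.6% of all genes tested were, and none passed over all probe sets in limma. Of 29 assembly factors above the filter 24 were negative, with a median of -0.13, and 7 were lower and 1 higher at an unadjusted p under 0.05, where 7.76% and 10.4% of all genes stood. Among them Tmem70, needed for ATP synthase assembly, was at 10.68 ± 0.09 (SD, n = 3) against 11.22 ± 0.09, a difference of -0.54 ± 0.084 (adjusted p = 0.078). Cox10 and Cox15, which make the haem A of complex IV, were at -0.46 ± 0.082 and -0.33 ± 0.066, and Ttc19, a complex III factor, at -0.44 ± 0.096. Cox19, linked to copper delivery to complex IV, was at 0.39 ± 0.13. Of 16 regulators of mitochondrial biogenesis 10 were negative, with a median of -0.15, and 5 were lower and 1 higher at an unadjusted p under 0.05. The coactivator Ppargc1a, a main regulator of mitochondrial biogenesis, was at 9.28 ± 0.16 (SD, n = 3) against 9.98 ± 0.22, a difference of -0.71 ± 0.14 (limma, adjusted p = 0.107), and the fatty acid receptor Ppara at -0.55 ± 0.13. The oestrogen-related receptor Esrra was at -0.25 ± 0.080, the mitochondrial transcription factor Tfam at -0.20 ± 0.088 and the transcription factor Yy1 at 0.25 ± 0.072. The highest of these regulators was Tfb1m, at 0.32 ± 0.15, while Nrf1 was at -0.27 ± 0.20 and Gabpa at 0.067 ± 0.11. Of 13 citric acid cycle genes 12 were negative, with a median of -0.19, and 8 were lower at an unadjusted p under 0.05. Citrate synthase, Cs, was at -0.24 ± 0.068. Of 9 carriers and ATP-handling genes 8 were negative, with a median of -0.14, and 2 were lower at that level. The inhibitor of ATP synthase Atpif1 was at 0.18 ± 0.13, and the adenine nucleotide carrier Slc25a5 at -0.31 ± 0.098. Slc25a4, the heart and muscle isoform of this carrier, at the top of the scale at 15.85 against 15.87, was at -0.026 ± 0.069.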

How the data were processed

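RNA abundance was read from 6 Affymetrix arrays of heart RNA, 3 a group, and titles gave the group and replicate number. The authors deposited log2 values made with GCRMA, per the submitters' processing notes, with its version not given in the sources used here. Station, scan order and the chip lot word came from the deposited instrument records. After 64 control probe sets were left out, 45037 remained, of which 34945 had 1 gene in the platform annotation, 932 several and 9160 none, and those with several were not named. Probe sets whose mean lay above the median of all means entered the test in limma 3.58.1 under R 4.3.3 (lmFit and eBayes, 2-sided), adjusted over all 22518. Isoform differences were tested by exact permutation. The test was checked on simulated data with independent noise for each probe set and added changes larger than most of the members' differences. Effects shared by the probe sets of an array were not simulated, so the check does not cover them. At most 0.0178% of values were equal between any pair of arrays. The members and lists were chosen with earlier results of these data known. The lists held assembly factors, biogenesis regulators, the citric acid cycle, carriers and markers of 8 cell types. The named genes were the isoform pairs, the ATP synthase c subunit, Sdh and cytochrome c genes, every member below the filter, and in complexes III, IV and V the 3 with the lowest difference, the 1 with the highest and the 2 with the smallest p. Cox7a2l, Atp5a1, Atp5b and the genes of the other lists were named after their values were seen. Markers of smooth muscle and pericytes had a median of -0.18, endothelium 0.035, skeletal muscle -0.078 over 2 genes and erythroid cells -0.20 for 1, and the 3 matched markers of adipocytes lay below the filter. Alternatives covered the filter, normalization, variance model, array weights, blocks, the sex-linked Xist level, probe set choice and each array left out.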

Additional observations from a re-analysis of the deposited data

How the results depend on the processing

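No member passed at 0.05 in limma under any of 19 alternatives, in which between 39 and 45 members were negative and their median stayed between -0.13 and -0.097. The station block and station 2 alone give the same differences, both against non-transgenic array 1 alone, yet count separately among the 19. The members at an unadjusted p under 0.05 were 7 of 45 in the reported fit and 24 of 48 with no filter. Over all probe sets, in either direction, 3689 of 22518 and 4244 of 45037 stood at that level. There were 12 members of 45 with quantile normalization, 21 with a variance trend and 3 with the station as a block. Of all 22518 probe sets, 3827, 3851 and 3696 stood there. With probe sets of a gene averaged there were 12 members of 45, against 2064 of 11016 genes. With single arrays left out the members ran from 3 to 9, where 2532 to 3455 of all probe sets stood there. The replicate numbers did not pair the arrays, with correlations of same-numbered deviations of -0.083, -0.17 and -0.0067, and the fit with the replicate block gave 3 such members and 0 probe sets called (3324 unadjusted). The count of all probe sets called in limma, 49 as reported, was 15 with no filter, 302 with the filter at log2 6, 108 with a variance trend, 2 with the station as a block and 0 in 2 other fits, of station 2 alone (3771 at an unadjusted p under 0.05) and with Xist added as a covariate (3126). It ran from 0 to 75 with single arrays left out: 75 without labelled transgenic array 1, 5 without non-transgenic array 1, and 0 for each of the other 4, which had 2532 to 3430 at an unadjusted p under 0.05. The complex IV median was -0.11 with the station as a block or within station 2. Cycs was at -0.38 when its probe sets, the dim one among them, were averaged. Signs turned for Uqcrh, to -0.0060 with quantile normalization, -0.031 without labelled transgenic array 1 (and 0.054 without array 3), -0.042 without probe sets of suffix _s_at or _x_at and -0.016 as the mean of probe sets. They turned for Atp5h, to -0.014 with the station as a block or within station 2, -0.0092 without labelled transgenic array 2 (and 0.045 without array 3) and -0.016 as the mean of probe sets, and for Cox7a2, to -0.020 as that mean. They also turned for Cox6b1, to 0.0052 with the station as a block or within station 2, and Cox6a2, to 0.0076 without non-transgenic array 1 (and -0.089 without array 2). Cox8b minus Cox8a ran from -0.044 to 0.083 with single arrays left out, Cox7a1 minus Cox7a2 kept its sign in 13 of 13 alternatives, from -0.32 to -0.23, and Cox6a2 minus Cox6a1 in 13 of 13, from 0.030 to 0.30. Where a value moved, the cause was not tested. The number of arrays limits the precision.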
